A study of Zea mays with 18 samples.

Results

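Yucca3 (GRMZM2G107761) and ARF1 (GRMZM2G169820) are 2 maize genes of the auxin pathway. They were taken from the table of read counts by their gene IDs and not by a rule on measured values. Earlier results of these data were known when they were chosen. They are 2 of the 39475 gene IDs in the table, and both were followed in all 18 libraries. The study sequenced polyadenylated RNA of isolated, untreated wild-type cells of the maize inbred line B73 (Zea mays). Its 6 groups of 3 libraries are sperm cells, egg cells, zygotes collected 12 h or 24 h after pollination, and the sister cells of the first zygotic division, called apical and basal. Whole cells were pooled for each library and their cDNA was amplified with a kit for low input. A sperm library pooled 1000 cells and an egg library 20. The 12 h zygote libraries pooled 14 to 15 cells, those at 24 h 16 to 17, the apical ones 16 and the basal ones 13 to 14.

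Auxin is a plant hormone that cells make, move and sense, and its distribution sets up polarity in the early plant embryo. YUCCA enzymes are flavin monooxygenases that carry out the last step of the main route of auxin synthesis, which starts from tryptophan. ARF proteins, the auxin response factors, bind the promoters of auxin-responsive genes and activate or repress them. When auxin is low, Aux/IAA proteins hold activating ARFs in check, and auxin triggers the destruction of these repressors. Synthesis and response therefore sit at opposite ends of the pathway, with transport carriers and receptors between them. The reference gives the symbol ARF1 without a description. It gives that symbol to 2 IDs when case is ignored, and the other ID was not used here.

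Levels are given as CPM, read counts scaled to library size, with TMM scaling, which adjusts each library so that most genes have similar levels between libraries. Total counts ran from 11128444 to 25771168 per library, and the TMM factors of sperm, 0.454 to 0.502, were the lowest. The markers of the labelled cells were found where the labels place them in the gametes. The gamete fusion gene hap2 lay at 586 to 923 CPM in sperm and at 8.62 CPM or less in every other library. The summed level of the embryo sac genes es1, es2 and es4 was 574 to 3786 CPM in egg and 30.8 to 34.8 CPM in sperm. Markers of the daughter cells were mixed. The apical marker wox2A ran against the labels, with a mean of 0.93 CPM in apical and 1.73 CPM in basal libraries. Its ranges overlapped, at 0.34 to 1.75 CPM in apical libraries and 1.15 to 2.06 CPM in basal libraries. The basal markers wox9A and wox9B ran with the labels, summing to 15.0 to 15.9 CPM in basal and 1.45 to 13.6 CPM in apical cells. A library pools cells, so fewer cells with a transcript and less RNA per cell cannot be told apart.

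Yucca3 RNA was abundant in sperm, was not detected in egg, and was present in every zygote and daughter-cell library. The sperm libraries held 717, 793 and 719 counts of Yucca3, which equal 82.8, 63.2 and 65.9 CPM. The egg libraries held 0 counts in all 3, out of 45995473 counts, which allows a level of up to 0.067 CPM over the group. This limit, 3 counts over the group, covers counting error only, since the amplified reads carried no molecular identifiers.

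In zygotes at 12 h Yucca3 had 655, 522 and 227 counts, or 31.0, 20.0 and 13.8 CPM. At 24 h it had 689, 982 and 847 counts, or 25.6, 36.1 and 34.2 CPM. The ranges of the zygote stages overlapped, and every zygote library lay below every sperm library on this scale.

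The daughter cells held the highest levels of Yucca3. Apical cells had 80.9, 112 and 88.0 CPM from 2031, 2374 and 1815 counts. Basal cells had 133, 85.2 and 266 CPM from 2628, 1778 and 4902 counts. The basal libraries spread most, with a coefficient of variation of 57.9%, and the highest of them, replicate 3, lay at 266 CPM. The lowest basal library lay within the apical range.

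ARF1 showed the reverse gamete pattern: its RNA was present in egg and was not detected in sperm. The sperm libraries held 0 counts in all 3, out of 66501217 counts, which allows up to 0.0935 CPM over the group. The egg libraries held 166, 282 and 422 counts, or 11.5, 20.4 and 25.5 CPM. The gamete ranges of both genes lay apart, in opposite directions.

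Zygotes at 12 h had 87, 732 and 188 counts of ARF1, or 4.12, 28.0 and 11.4 CPM. Their coefficient of variation was 84.4%, the largest of any group for either gene, with replicate 2 far above the other 12 h libraries. At 24 h the counts were 289, 234 and 150, or 10.8, 8.61 and 6.06 CPM, all inside the 12 h range and all below the egg range.

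Apical cells had 51.8, 74.1 and 68.6 CPM of ARF1 from 1301, 1573 and 1415 counts. Basal cells had 35.4, 37.0 and 27.1 CPM from 697, 773 and 500 counts. Every apical library lay above every basal library, and every basal library lay above every egg library and every 24 h library.

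**Figure D1:**
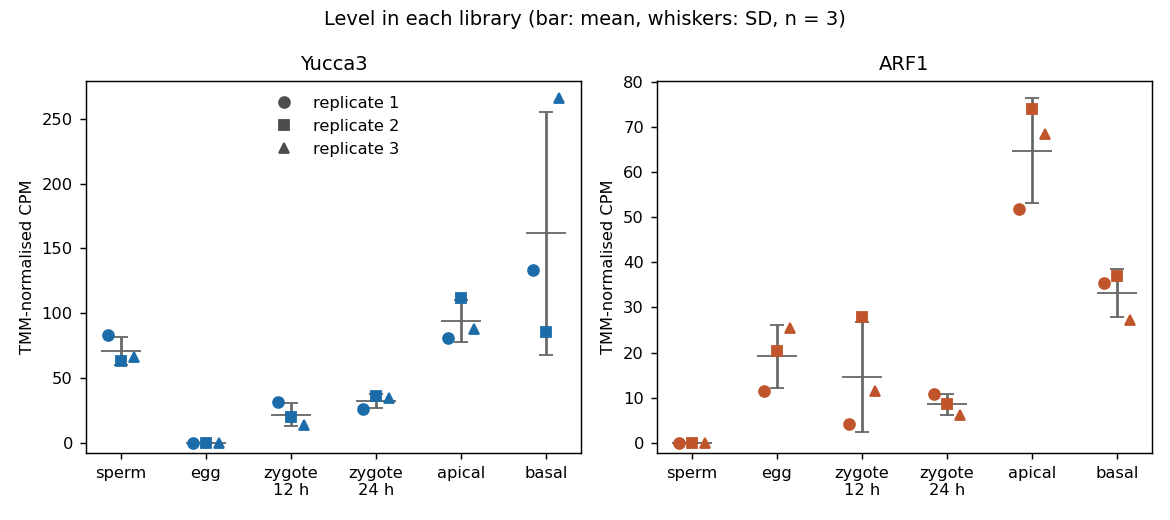
TMM-normalised CPM (linear axes that differ between the panels) of Yucca3 and ARF1 in each library by group; points are the 3 replicates, horizontal bars the means and whiskers the SD. Yucca3 lay at 0 in egg and ARF1 at 0 in sperm, and both had their highest group mean in a daughter cell, 161 CPM in basal cells for Yucca3 and 64.9 CPM in apical cells for ARF1.

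By group mean, Yucca3 ran from basal (161 ± 93.5 CPM, SD, n = 3) through apical (93.6 ± 16.2), sperm (70.7 ± 10.6), 24 h zygote (32.0 ± 5.58) and 12 h zygote (21.6 ± 8.73) to egg at 0. In this order basal and apical, apical and sperm, and the 24 h and 12 h zygotes overlapped in their ranges. Sperm lay apart from the 24 h zygote, and the 12 h zygote from egg. ARF1 ran from apical (64.9 ± 11.6 CPM, SD, n = 3) through basal (33.2 ± 5.32), egg (19.1 ± 7.07), 12 h zygote (14.5 ± 12.2) and 24 h zygote (8.48 ± 2.35) to sperm at 0. Here egg and the 12 h zygote overlapped, as did the 12 h and 24 h zygotes, and the other neighbours lay apart. Across the 18 libraries the log2 levels of Yucca3 and ARF1 had a Pearson r of -0.03, a description over libraries that fall into 6 groups.

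Part of this order depended on the scaling. With CPM by library size only, Yucca3 had a mean of 33.8 ± 3.28 CPM (SD, n = 3) in sperm, 32.5 ± 14.3 at 12 h and 44.3 ± 7.91 at 24 h, which puts sperm below the 24 h zygote and level with the 12 h zygote. ARF1 had 18.3 ± 4.45 CPM in egg and 21.2 ± 17.3 at 12 h on that scale, so that pair also changed places. The daughter cells moved little, with Yucca3 at 93.4 ± 22.9 CPM in the apical group and 165 ± 91.8 CPM in the basal group. The apical and basal means of ARF1 were 64.5 ± 14.5 CPM and 34.6 ± 7.26 CPM. The group at 0 and the highest group of each gene were the same on both scales.

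**Figure D2:**
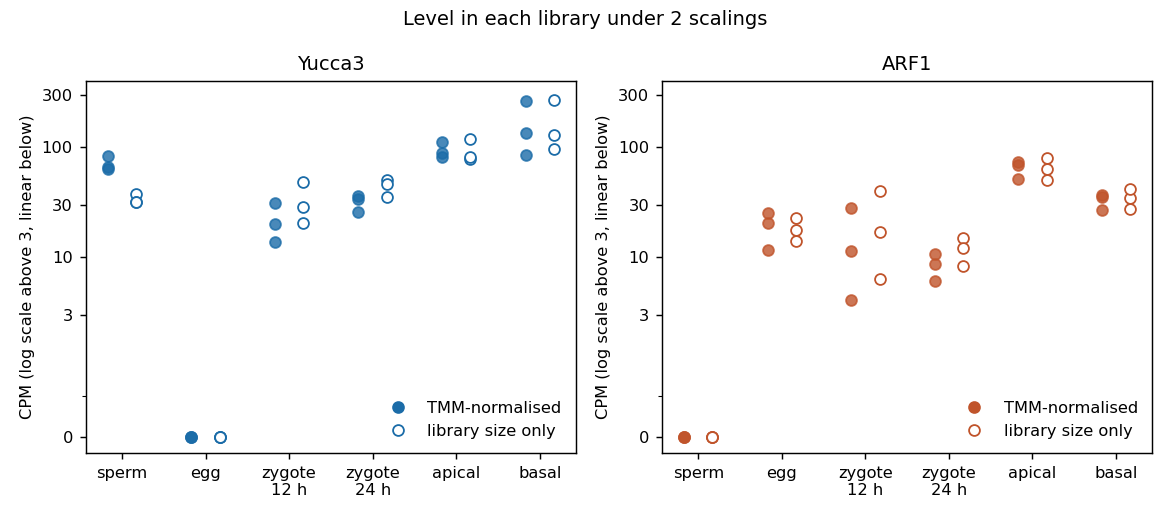
CPM of Yucca3 and ARF1 in each of the 18 libraries with TMM scaling (filled points) and by library size only (open points), on an axis that is logarithmic above 3 CPM and linear below. The sperm points of Yucca3 dropped from a mean of 70.7 to 33.8 CPM, into the range of the zygotes, while its egg points and the sperm points of ARF1 stayed at 0.

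The first comparison asked how the gametes differ. Yucca3 was at least 1054-fold higher in sperm than in egg (edgeR quasi-likelihood test with Benjamini-Hochberg adjustment over all genes, adjusted p = 3.39e-09). ARF1 was at least 205-fold lower in sperm than in egg (edgeR adjusted p = 3.48e-07). Both folds are lower bounds against 3 counts over the group at 0. By library size only the bounds were 518-fold for Yucca3 and 405-fold for ARF1. Without each library in turn they ran from 664.5-fold to 1110-fold for Yucca3 and from 125-fold to 246-fold for ARF1. The lowest came without egg replicate 3 for Yucca3 and without sperm replicate 2 for ARF1, whose bound was 135-fold without sperm replicate 3, since fewer counts then set the floor. Calls were common in this comparison: 63.9% of the 24835 genes tested passed the threshold of adjusted p under 0.05, 24.7% as higher and 39.3% as lower in sperm, and the ranges of the groups did not overlap for 61.9%.

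Absence from egg joined to presence everywhere else was rarer. Of the 13245 IDs with 0 counts in all egg libraries, 15 had at least 1 CPM in each of the other 15 libraries, and 2 had at least 10 CPM in each. Those 2 were Yucca3, with a lowest level of 13.8 CPM, and RNRS3, a small subunit of ribonucleotide reductase, with a lowest level of 52.7 CPM. Absence from sperm was different: 13847 IDs had 0 counts there, and 512 of them, ARF1 among them, had at least 1 CPM in each of the other 15 libraries. These limits in CPM were chosen after the values had been seen.

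Genes used as markers of pollen, whose vegetative cell surrounds the sperm, were also high in the sperm libraries. The summed level of 10 such markers was 1233 to 1622 CPM in sperm, with all 10 at a mean of 1 CPM or more. Which cell this RNA came from, and its part in the sperm level of Yucca3, was not tested. The sum was 183.7 CPM in apical replicate 1 and 1.79 to 42.2 CPM in the other libraries outside sperm, and 1 of the markers, prf1, had means of 6.02 to 22.6 CPM in the other groups.

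The next comparisons asked what fertilisation brings. At 12 h, Yucca3 was at least 322-fold higher than in egg (edgeR adjusted p = 3.97e-06). The bound ran from 203-fold, without egg replicate 3, to 380-fold without each library in turn and was 498-fold by library size only. In this comparison 37.4% of 23806 genes were called, 19.4% as higher and 18.1% as lower, and the ranges of 42.3% did not overlap. Against sperm, Yucca3 fell by 1.67 ± 0.40 on the log2 scale (95% interval -2.51 to -0.82, edgeR adjusted p = 0.00165). The size of that fall, and its call, depended on the scaling. The log2 difference was -1.80 with RLE scaling (edgeR adjusted p = 0.000977) and -2.02 with upper-quartile scaling (edgeR adjusted p = 0.000446), but by library size only it was -0.056 (edgeR adjusted p = 0.899) and the ranges overlapped. Measured against the median of all tested genes, which itself moved from 1.60 with TMM to 3.15 by library size, Yucca3 lay 3.27 and 3.21 log2 units lower.

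ARF1 was at least 155-fold higher at 12 h than in sperm (edgeR adjusted p = 5.23e-07). That bound leaned on 12 h replicate 2: without it the bound was 83.0-fold, it was 94.6-fold without sperm replicate 2 and 102.5-fold without sperm replicate 3, and by library size only it was 469-fold. In this comparison 73.7% of 24835 genes were called, 47.7% as higher and 26% as lower at 12 h, and the ranges of 79.5% did not overlap. Against egg, ARF1 did not pass the test: the log2 difference was -0.36 ± 0.51 (95% interval -1.45 to 0.73, edgeR adjusted p = 0.612), and it was 0.21 by library size only. It was 0.0904 without 12 h replicate 1 and -1.27 without 12 h replicate 2, the highest 12 h library. At 12 h, then, both genes stood far above the gamete in which they had 0 counts, and ARF1 was not shown to differ from the gamete that carried it.

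Between 12 h and 24 h neither gene passed the test. Yucca3 differed by 0.56 ± 0.40 log2 units (95% interval -0.30 to 1.42, edgeR adjusted p = 0.689). ARF1 differed by -0.79 ± 0.51 log2 units (95% interval -1.88 to 0.31, edgeR adjusted p = 0.649), and by 0.13 when 12 h replicate 2, its highest 12 h library, was left out. Few genes were called between these stages, 1.04% of 23806 (1% higher, 0.0378% lower), while the ranges of 25.2% did not overlap. The intervals leave room for changes of up to 1.42 log2 units upward for Yucca3 and 1.88 log2 units downward for ARF1.

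After the division both genes were higher in both daughter cells than in the 24 h zygote, with groups that did not overlap. In apical cells Yucca3 was 2.81-fold higher (log2 1.49 ± 0.40, 95% interval 0.62 to 2.36, edgeR adjusted p = 0.0195). ARF1 was 7.34-fold higher (log2 2.87 ± 0.54, 95% interval 1.71 to 4.04, edgeR adjusted p = 0.00283). Of all genes, 24.9% were called here, 13% as higher and 11.8% as lower, and the ranges of 53.1% did not overlap.

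In basal cells Yucca3 was 4.86-fold higher than in the 24 h zygote (log2 2.28 ± 0.41, 95% interval 1.38 to 3.18, edgeR adjusted p = 0.00414), and 1.67 log2 units higher without basal replicate 3 (edgeR adjusted p = 0.0218). ARF1 was 3.76-fold higher (log2 1.91 ± 0.53, 95% interval 0.79 to 3.03, edgeR adjusted p = 0.0237). Here 18% of genes were called, 9.81% as higher and 8.15% as lower, and the ranges of 52.2% did not overlap.

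The smaller change of each gene rested on the full set of libraries. The apical call of Yucca3 was lost when any of the 24 h libraries, apical replicate 2 or apical replicate 3 was left out (edgeR adjusted p = 0.0506 to 0.0704, log2 1.34 to 1.58), and by library size only (log2 1.08, edgeR adjusted p = 0.0666). The basal call of ARF1 was lost without 24 h replicate 2, 24 h replicate 3 or any of the basal libraries (edgeR adjusted p = 0.0506 to 0.102, log2 1.72 to 2.00). The apical libraries of both genes were lowest in replicate 1, the library with 183.7 CPM of pollen markers. Without it the log2 differences were 1.57 for Yucca3 and 3.01 for ARF1. The summed level of 8 markers of the endosperm and central cell was 199 to 271 CPM at 24 h, 402 to 478 CPM in apical libraries and 345 to 434 CPM in basal libraries, with 7 of the 8 at a mean of 1 CPM or more in each group. Most of that difference was mez1, whose mean level was 89.0 CPM at 24 h, 243 CPM in the apical group and 203.9 CPM in the basal group. Not all of the list went that way: bt2 had 17.6, 11.8 and 11.4 CPM in the same groups, and fie1 was at 0.0639 CPM or less in each. Outside these groups the sum was 195 to 707 CPM in egg, 202 to 238 CPM at 12 h and 32.9 to 41.1 CPM in sperm. The part of these markers in the result was not tested.

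The sister cells were compared directly to ask whether the first division separates them. Yucca3 had the higher mean in basal cells and ARF1 in apical cells, and neither difference passed the test. Yucca3 differed by -0.79 ± 0.40 log2 units, apical over basal (95% interval -1.65 to 0.07, edgeR adjusted p = 0.944), and by -0.21 without basal replicate 3. ARF1 differed by 0.96 ± 0.51 log2 units (95% interval -0.13 to 2.06, edgeR adjusted p = 0.958), with ranges that did not overlap, as for 14.9% of all genes. In this comparison edgeR called 0 of 23806 genes (0%), 1267 genes had an unadjusted p under 0.05, and DESeq2 called 76. The change since the 24 h zygote was therefore not shown to differ between the sisters for either gene.

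**Figure D3:**
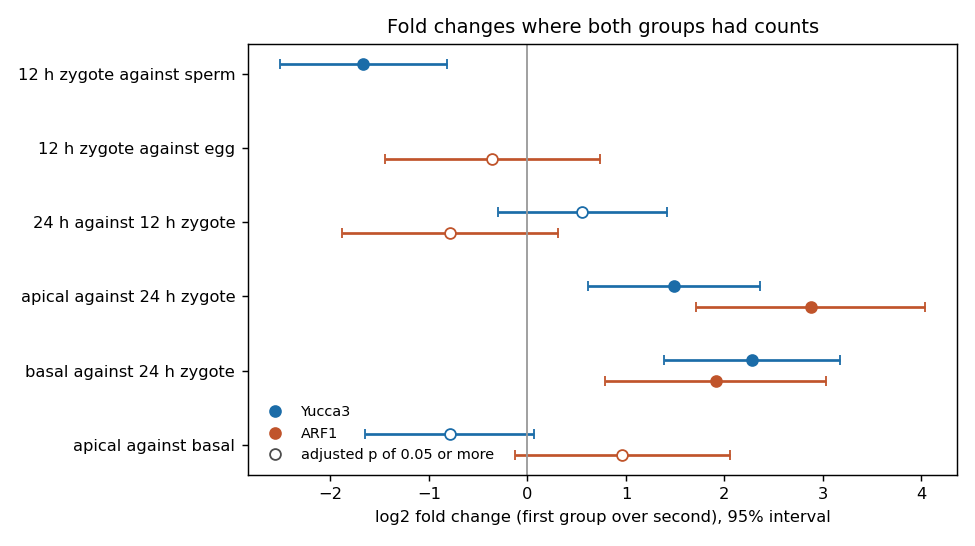
Log2 fold changes of Yucca3 (blue) and ARF1 (orange) with 95% intervals from the edgeR fits, for the comparisons in which both groups had counts; filled points have an adjusted p under 0.05. Both genes lie to the right of 0 in apical and basal cells against the 24 h zygote, and the intervals cross 0 between the zygote stages and between the sister cells.

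The rest of the auxin pathway gives the setting for these values. By reference symbol, 65 IDs including Yucca3 and ARF1 were placed in the pathway: 9 for synthesis, 2 for conjugation, 11 for transport, 3 auxin-binding proteins, 3 Aux/IAA repressors, 20 response factors, 1 early response gene and 16 with AUX-numbered symbols whose product the reference does not give. Of these, 40 reached a group mean of at least 1 CPM and 43 passed the filter on low counts. Levels were not ranked between genes, because transcript lengths were not used here.

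Among the synthesis genes, Yucca3 was the only one to reach a group mean of 1 CPM. All 9 had 0 counts in egg. Yucca6 had 0.887 ± 0.30 CPM (SD, n = 3) in basal cells, 0.519 ± 0.20 at 12 h, and 0 counts in both gametes. Yucca2 had 18 counts over all libraries, TAR3 (a tryptophan aminotransferase-related gene) 10 and Yucca7 7, while spi1, yuc, Yucca10 and Yucca12 had 0 in all 18 libraries.

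GH3, of the family that joins auxin to amino acids, was low in both gametes at 1 and 3 counts per group and reached 6.34 ± 3.6 CPM (SD, n = 3) at 12 h. From 370 counts at 12 h against 3 in egg, all in replicate 1, the ratio was 86.5 (exact 95% counting interval 29.4 to 422, edgeR adjusted p = 0.00401). Against the 1 count in sperm it was 186 (33.2 to 7376, edgeR adjusted p = 0.000627). These ratios use counts pooled over each group, so their intervals leave out the spread between libraries. Among the auxin efflux carriers of the PIN family, PIN10a had 0 counts in egg and was at least 23.4-fold higher at 12 h (edgeR adjusted p = 0.00203), or 14.8-fold without egg replicate 3. PIN10a was also at least 5.25-fold higher in sperm than in egg (edgeR adjusted p = 0.0104), from 11 counts, a bound of 3.31-fold without egg replicate 3 and 2.57-fold by library size only. PIN1a was at least 8.16-fold higher at 12 h than in sperm (edgeR adjusted p = 0.0176), a call lost without sperm replicate 2 or 3 (edgeR adjusted p = 0.0534 and 0.0505). PIN8 was at least 14.8-fold lower in sperm than in egg (edgeR adjusted p = 0.047), a call lost without 5 of the 6 libraries in turn (edgeR adjusted p up to 0.264), with a bound of 2.91-fold without egg replicate 1.

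The auxin-binding proteins abp4 and abp5 were lower in both daughter cells than in the 24 h zygote, where Yucca3 and ARF1 were higher. The remaining auxin-binding gene, abp1, was not called in either daughter cell. The level of abp4 was 21.3 ± 4.1 CPM (SD, n = 3) at 24 h, 2.76 ± 1.1 in apical and 4.22 ± 1.2 in basal cells. It fell by 3.003 ± 0.47 log2 units in apical cells (edgeR adjusted p = 0.00104). The related abp5 fell by 2.63 ± 0.49 log2 units in basal cells (edgeR adjusted p = 0.00369). In the gametes abp5 was lower in sperm than in egg by 3.33 log2 units, a log2 fold change of -3.33 ± 0.50 (edgeR adjusted p = 2.01e-05) that was -2.46 without egg replicate 1, and higher at 12 h than in sperm by 4.11 ± 0.52 (edgeR adjusted p = 2.65e-06).

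The Aux/IAA gene IAA12 had 0 counts in both gametes, 12.2 ± 5.4 CPM (SD, n = 3) in basal and 7.67 ± 3.8 CPM in apical cells. It was at least 23.7-fold higher at 12 h than in egg (edgeR adjusted p = 0.00539) and at least 17.0-fold higher than in sperm (edgeR adjusted p = 0.0028). These bounds leaned on 12 h replicate 1, and without it they were 7.30-fold and 5.24-fold. The former was 14.9-fold without egg replicate 3, and the latter 10.4-fold without sperm replicate 2 and 11.2-fold without sperm replicate 3. BIF1, another Aux/IAA repressor, was lower in sperm than in egg with a log2 fold change of -4.81 ± 1.34 (edgeR adjusted p = 0.00472). That call was lost without egg replicate 1 (log2 -1.83, edgeR adjusted p = 0.141).

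Nearly all response factors were seen, and ARF1 was among those called lower in sperm than in egg. Of the 20, 19 reached a group mean of 1 CPM. ARF1, ARF4, ARF11, ARF21 and ARF30 had 0 counts in sperm, and ARF23 had 0 in egg. Of all 39475 IDs, 13847 had 0 counts in sperm and 13245 in egg. Of the response factors at 0 in sperm, ARF1, ARF11 and ARF30 were called lower there than in egg. ARF4 and ARF21 were not, and ARF21 had 1 count in egg. By TMM-scaled group mean, ARF1, ARF2, ARF9, ARF10, ARF11, ARF16 and ARF23 were highest in apical cells and ARF12, ARF17 and ARF28 in egg. ARF3, ARF4, ARF18, ARF30 and ARF33 were highest at 12 h and ARF5, ARF13, ARF21 and ARF31 at 24 h, while ARF19 reached 0.486 CPM at most. Many of these groups overlapped in their ranges. Of the 19 tested, 10 were lower in sperm than in egg and 0 higher, while 15 were higher at 12 h than in sperm and 0 lower. These are 52.6% and 78.9% of the response factors, against 63.9% and 73.7% of all genes called in either direction. In the same direction, 39.3% of all genes were called lower in sperm than in egg and 47.7% higher at 12 h than in sperm. Against egg, 5 were higher at 12 h, namely ARF10, ARF11, ARF16, ARF21 and ARF23, or 26.3%. Of all genes, 19.4% were called higher there and 37.4% in either direction. The calls of ARF10 and ARF16 were lost without some libraries (edgeR adjusted p up to 0.0544 and 0.102).

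After the division the response factors went both ways. In apical cells ARF1, ARF11 and ARF23 were called higher and ARF33 lower than in the 24 h zygote, 21.1% of the response factors against 24.9% of all genes. The split of 3 higher and 1 lower became 1 and 3 by library size only, 1 and 2 with upper-quartile scaling and 3 and 2 with RLE scaling. The calls of ARF11 (log2 0.94 ± 0.29, edgeR adjusted p = 0.028) and ARF23 (log2 2.05 ± 0.67, edgeR adjusted p = 0.0418) were each lost whichever library was left out (edgeR adjusted p up to 0.0845 and 0.215, with ARF23 at log2 1.28 to 2.36), and under library-size and upper-quartile scaling. In basal cells ARF1 was the only response factor called higher, and ARF5, ARF13, ARF21 and ARF33 were called lower, 26.3% against 18% of all genes. Of these, ARF21 alone kept its call without each library in turn, at 1.93 ± 1.3 CPM (SD, n = 3) at 24 h and 0.0169 CPM in basal cells. From 149 counts against 1, pooled over each group, the ratio was 112 (exact 95% counting interval 19.7 to 4436, edgeR adjusted p = 0.00553). That interval leaves out the spread between libraries. ARF13 had 202 ± 8.0 CPM at 24 h and 111 ± 19 CPM in basal cells.

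The AUX-numbered genes held both gamete patterns. AUX3 had 0 counts in sperm and was at least 259.6-fold lower there than in egg (edgeR adjusted p = 1.47e-06) and at least 325-fold higher at 12 h than in sperm (edgeR adjusted p = 1.05e-06). Without sperm replicate 2 these bounds were 158-fold and 198-fold, and the former was 150.1-fold without egg replicate 1 and 171-fold without sperm replicate 3, the latter 215-fold without sperm replicate 3. AUX15 had 0 counts in egg and was at least 98.9-fold higher in sperm (edgeR adjusted p = 0.000319), or 62.3-fold without egg replicate 3 and 48.7-fold by library size only. AUX35, also at 0 in egg, was at least 137-fold higher at 12 h (edgeR adjusted p = 0.000545), or 86.2-fold without egg replicate 3.

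In the daughter cells AUX9 (GRMZM2G048131) averaged 6.83 ± 4.8 CPM (SD, n = 3) in apical libraries and 5.77 ± 5.3 CPM in basal libraries against 0.0983 CPM at 24 h. Its log2 differences were 5.97 ± 1.36 (edgeR adjusted p = 0.0114) and 5.71 ± 1.34 (edgeR adjusted p = 0.0168), from 5.24 to 8.03 and from 4.67 to 7.78 without each library in turn, the highest of each without 24 h replicate 2. The basal call was lost without 24 h replicate 1 or 3 or basal replicate 1 (edgeR adjusted p = 0.0584 to 0.0641). AUX36 was called lower in apical cells, with 30 counts at 24 h against 1, pooled over each group (ratio 25.5, exact 95% counting interval 4.24 to 1040.0, edgeR adjusted p = 0.0424). The interval leaves out the spread between libraries, and the call was lost without any of the 6 libraries (edgeR adjusted p up to 0.15). AUX27 was called lower in basal cells (log2 -5.18 ± 1.59, edgeR adjusted p = 0.0369), a call lost without 5 of the 6 (log2 -8.76 to -4.52, edgeR adjusted p up to 0.125).

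**Figure D4:**
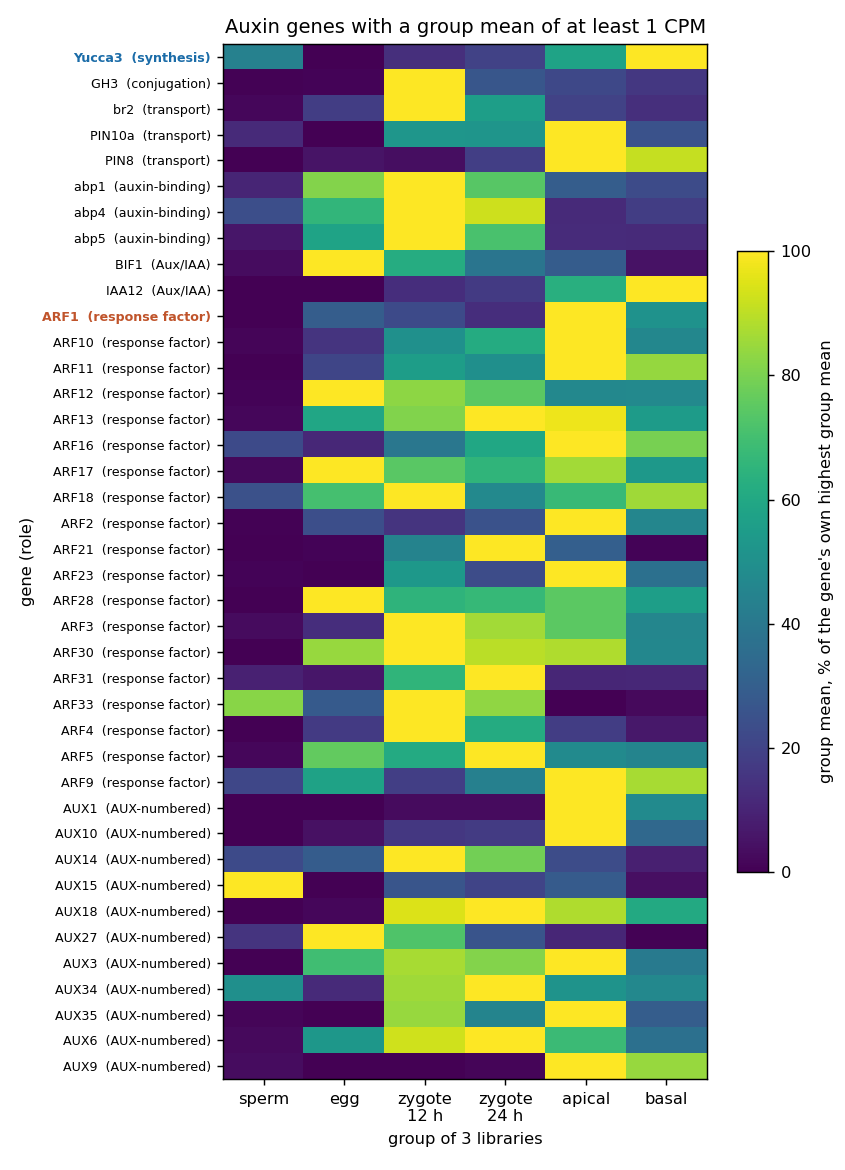
Heat map of the 40 auxin genes that reached a group mean of 1 CPM: columns are the 6 groups of 3 libraries, colour is the group mean as a percentage of the gene's own highest group mean, and Yucca3 and ARF1 are in coloured type. The sperm column is dark for most response factors, ARF1 included, while Yucca3 is the only synthesis gene and is dark in egg.

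Counting both directions, the auxin list as a whole was called about as often as the background in most comparisons. At 12 h nearly all of its calls were higher. Part of that split was fixed in advance, because a gene at 0 counts in a gamete cannot fall below it. Of its 43 tested genes, 4 were higher and 19 lower in sperm than in egg (53.5%, against 63.9% of all genes, 24.7% higher and 39.3% lower). The median log2 difference was -1.53 when genes at 0 stand at their bound, against -0.62 for all genes. At 12 h, 31 were higher and 1 lower than in sperm (74.4%, against 73.7% of all genes, 47.7% higher and 26% lower), the 1 being Yucca3. Against egg 17 were higher and 0 lower (39.5%, against 37.4% of all genes, 19.4% higher and 18.1% lower), with a median of 1.82 against 0.06 for all genes. These comparisons share libraries, and Yucca3 and ARF1 are among the genes counted. Among the genes called higher against egg, Yucca3, Yucca6, PIN1a, PIN10a, IAA12, ARF23, AUX15, AUX35 and AUX36 had 0 counts in egg. The share of all-gene calls that were higher also moved with the scaling. By library size only it went from 51.8% to 73.9% against egg and from 64.7% to 80.2% against sperm.

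Leaving out each library in turn kept 17 of the 23 calls of auxin genes in sperm against egg, 30 of 32 at 12 h against sperm, 11 of 17 at 12 h against egg, 5 of 10 in apical and 5 of 11 in basal cells. The share of all genes that kept their call is not given here. Calls of all genes fell too, from 5916 to between 2713 and 4302 in apical cells against 24 h. In basal cells against 24 h they fell from 4276 to between 1690 and 2808.

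Between 12 h and 24 h the calls were 0 of 43 by edgeR and by DESeq2, with 0 at an unadjusted edgeR p under 0.05. Of all 23806 genes, edgeR called 1.04% there, 10.6% had an unadjusted edgeR p under 0.05, and DESeq2 called 736 genes. In apical cells 6 were higher and 4 lower than at 24 h (23.3%, against 24.9%), a split that became 2 and 7 by library size only and 4 and 6 with upper-quartile scaling. In basal cells 3 were higher and 8 lower (25.6%, against 18%), with a median of -0.92 against -0.20. Yucca3 and ARF1 were thus 2 of the 3 auxin genes called higher in basal cells, AUX9 being the other. Of these 3, Yucca3 alone kept its call without each library in turn. Between the sisters edgeR called 0 of 43, with 6 at an unadjusted edgeR p under 0.05, and DESeq2 called 0. Of all 23806 genes, edgeR called 0% there, 5.32% had an unadjusted edgeR p under 0.05, and DESeq2 called 76 genes.

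The genes whose pattern was most like that of each gene were taken from the named genes by Pearson r of log2(CPM + 1) over the 18 libraries, which share depth and group. For Yucca3 these were nfd106 (r = 0.94), RNRS3 (0.93), ct2 (0.91), NLP8 (0.90) and kin11 (0.88). The gene ct2 codes for the alpha subunit of a heterotrimeric G protein, NLP8 for a NIN-like transcription factor and kin11 for a kinesin. RNRS3 had 122 ± 39.2 CPM (SD, n = 3) in sperm, 0 counts in egg and 72.3 ± 21.9 CPM at 12 h. The others had counts in egg, from 9 for kin11 to 216 for ct2 over the group. Among all 24834 other genes kin11 ranked 46th, and most of the genes above it had no name.

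For ARF1 the nearest named genes were hir2 (r = 0.96), SnRK2.6 (0.96), RSZ20 (0.96), hcf106 (0.95) and rif1 (0.95). SnRK2.6 is a protein kinase and hcf106 is part of the machinery that carries proteins into the thylakoids. All 5 had their lowest group mean in sperm and their highest in apical cells, like ARF1. Of these 5, rif1 also had 0 counts in sperm, and 781 over the egg libraries. Within the auxin list ARF11 (0.88), ARF28 (0.83) and ARF17 (0.83) came nearest to ARF1, and ARF16 (0.73) and IAA12 (0.62) to Yucca3. The nearest genes depended on the measure and the libraries. Of the 5 nearest Yucca3, 1 stayed with Spearman correlation, 3 with levels by library size only and 1 without the sperm libraries. For ARF1 these numbers were 4, 4 and 2.

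**Figure D5:**
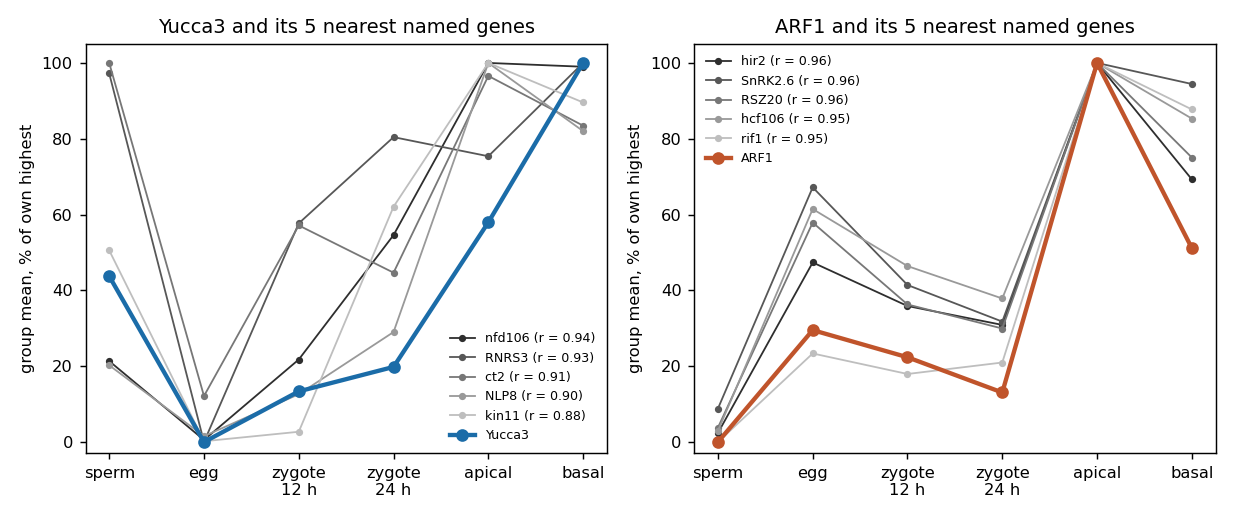
Group mean CPM as a percentage of each gene's own highest group mean across the 6 groups, for Yucca3 (left, blue) and ARF1 (right, orange) with the 5 named genes most like each (grey). The genes near Yucca3 drop to their lowest in egg, and those near ARF1 are lowest in sperm and highest in apical cells.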

How the data were processed

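The authors deposited raw read counts per gene ID, whole numbers in 1 table. The submitters' processing notes list STAR 2.5.2a, featureCounts, DESeq2, cutadapt 1.13, Trimmomatic 0.32 and FastQC, with the build B73 RefGen_v3. Strand and multi-mapping settings are not given there, so genes with near-identical copies or antisense partners are uncertain. Names came from a reference of another assembly, so no coordinates are given; it paired 18387 of 39475 IDs with 1 gene and 2553 with an informative name. No reference gene overlapped either gene.

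The test was that of edgeR 4.0.16 under R 4.3.3 (TMM, filterByExpr, robust quasi-likelihood), adjusted over all genes tested and called at an adjusted p under 0.05. Sperm comparisons used all 18 libraries, the other 5 comparisons the 15 without sperm. CPM values use TMM factors over all genes. Values after ± on log2 fold changes are approximate standard errors. The test was checked on simulated counts with the same spread for every gene, few changed genes and no group set to 0. That check therefore does not cover the shifts in scaling or the groups at 0 seen here. Alternatives were other scalings, no filter, DESeq2 1.42.0, only the 2 groups, a replicate block and each library left out. Bounds for genes at 0 were recomputed by library size and without each library after the values had been seen. Genes named were the nearest 5 named genes, every YUCCA and ARF gene of the auxin list, and per other role the called gene with the largest change in each direction. Genes, lists and tests were chosen with earlier results of these data known. Whether replicates are separate plants is not labelled, and p-values therefore reflect the spread of these libraries alone, possibly technical. No libraries differed as little as sampling noise.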

Additional observations from a re-analysis of the deposited data

How the results depend on the processing

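Yucca3 and ARF1 kept their direction and their side of the threshold in the comparisons with a gamete at 0, under every scaling, DESeq2, no filter, the fit of 2 groups, the block and each library left out. The cause of the other changes was not tested. By library size only, Yucca3 at 12 h against sperm was -0.056 (adjusted p = 0.899), Yucca3 in apical cells against 24 h was 1.08, and ARF1 at 12 h against egg turned to 0.21. With each library left out, ARF1 ran from -1.27 to 0.0904 at 12 h against egg and from -1.23 to 0.13 at 24 h against 12 h, turning positive without 12 h replicate 1 and without 12 h replicate 2 respectively. Likewise Yucca3 in apical cells ran from 1.34 to 1.58 and ARF1 in basal cells from 1.72 to 2.13.

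All-gene counts moved more. In the fit of 2 groups the calls were 3785 at 12 h against egg (8912 in the shared fit), 890 at 24 h against 12 h (248), 8194 in basal cells against 24 h (4276) and 2 between the sisters (0). DESeq2 called 736 at 24 h against 12 h and 76 between the sisters. Leaving out libraries gave 127 to 175 genes at 24 h against 12 h, 2713 to 4302 in apical and 1690 to 2808 in basal cells against 24 h. By library size only, the share of calls that were higher went from 38.6% to 25.8% in sperm against egg, 64.7% to 80.2% at 12 h against sperm, 51.8% to 73.9% at 12 h against egg, 52.4% to 29.6% in apical and 54.6% to 33.2% in basal cells against 24 h.

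Replicate numbers were not taken as pairs, because no comparison had all 3 same-numbered correlations of deviations above 0.1. Between apical and basal cells, replicates 1 and 2 did deviate with their own number (0.34 and 0.384, against -0.423 and -0.316 crossed) and replicate 3 did not (-0.0279). The replicate block changed no call of Yucca3 or ARF1: Yucca3 in apical cells was 1.498 (adjusted p = 0.0361) and ARF1 in basal cells 1.88 (adjusted p = 0.0309). With the block and only the sister groups, an alternative added after seeing the data, Yucca3 was -0.68 and ARF1 0.92, apical over basal, and 0 genes were called.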
